A study of Mus musculus with 6 samples.

Results

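The genes described here are 10 chains of interleukin receptors that effector T cells carry: Il2ra, Il2rb, Il2rg, Il7r, Il4ra, Il21r, Il12rb1, Il12rb2, Il18r1 and Il18rap. They are picked out of the data by gene symbol, and each of the 10 symbols was found in the deposited tables of all 6 libraries, which list 34745 genes. All 10 also had a mean of at least 1 FPKM (fragments per kilobase of transcript scaled by library size), the minimum for a test of genotype, and so stand among the 9627 genes tested.

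The libraries are RNA-seq of cultured CD8+ effector T cells (Teff), 3 from WT mice (C57BL/6J) and 3 from Scd-1-/- mice (B6.129-Scd1tm1Ntam/J), and the comparison asks how these cells differ with loss of Scd-1, an enzyme that makes monounsaturated fatty acids. Per the study's methods, the Scd-1-/- mice were donated from another institute and the WT mice were bought. Genotype thus cannot be told apart from the source and background of the mice. The mice were males of 6 to 8 weeks. CD8+ T cells were isolated from the spleen with a kit and activated for 3 days with 5 μg/mL anti-CD3, 0.5 μg/mL anti-CD28 and 100 U/mL IL-2, after which a further 3 days in IL-2 preceded the harvest on day 6. Both genotypes thus received IL-2, the ligand of the receptor formed by Il2ra, Il2rb and Il2rg. The Scd-1 knockout is in the germline and so in every cell of the mouse, not in T cells alone. The knocked-out gene lies on chromosome 19, where none of the 10 receptor genes is found.

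Interleukin receptors are built from chains that are shared in different combinations. Il2rg encodes the common gamma chain, which pairs with Il2ra and Il2rb to bind IL-2, with Il7r to bind IL-7, with Il4ra to bind IL-4 and with Il21r to bind IL-21, and signals through JAK kinases and STAT factors. Il12rb1 and Il12rb2 form the receptor for IL-12, which acts through STAT4, while Il18r1 and Il18rap form the receptor for IL-18, a relative of IL-1 that acts through MyD88 and IRAK kinases. In CD8+ T cells IL-2 drives expansion and effector differentiation, IL-7 supports the survival of naive and memory cells, and IL-12 with IL-18 induces IFN-γ.

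Scd1, the knocked-out gene, had 4272, 3074 and 3761 counts in WT replicates 1, 2 and 3 and 30, 36 and 20 counts in Scd-1-/- replicates 1, 2 and 3, which follows the labels. The libraries held between 14034479 and 15866216 counts. Genes of CD8+ T cells were abundant in both genotypes, with 6 of 6 tested and summed counts of 39248 to 50973 in WT and 36020 to 46406 in Scd-1-/- libraries, whereas Ms4a1 and Pax5 of B cells and Adgre1 of macrophages had no count in any library. Other genes of these lists were present. Ighm had 2957 to 8703 counts in a library and a log2 fold change of -0.77, and Cd79b had 342, 278 and 307 counts in WT and 259, 93 and 123 in Scd-1-/- replicates 1, 2 and 3, without overlap (log2 fold change -1.02), with adjusted p by edgeR of 0.387 for each on genotype alone and of 0.0262 and 0.0434 with the block. Among the CD8+ T cell genes, Cd8a had an FPKM of 43.2, 47.6 and 47.0 in WT and of 36.6, 27.9 and 33.7 in Scd-1-/- replicates 1, 2 and 3, lower in every Scd-1-/- library (log2 fold change -0.46, adjusted p by edgeR 0.297 on genotype alone, 0.063 with the block and 0.0166 in replicates 2 and 3 alone). Cd8b1 had a log2 fold change of -0.30 (adjusted p by edgeR 0.647 on genotype alone, 0.124 with the block and 0.0382 in replicates 2 and 3 alone) and was lower in Scd-1-/- in each replicate number. Summed counts over 4 markers of CD4 T cells were 657 to 1183 in WT and 881 to 1121 in Scd-1-/-, nearly all from Zbtb7b, while Cd4 itself had 8, 24 and 12 counts in WT and 5, 2 and 1 counts in Scd-1-/- replicates 1, 2 and 3. Those over 6 B cell markers, 3 of them without a count, were 4595 to 9045 and 3050 to 5041, and 4 erythroid markers gave at most 4 counts in a library. In a principal component analysis the first component (42.3% of the variance) set replicate 1 of both genotypes apart from the others, and the second (36.2%) separated the genotypes. Results are therefore also given from a fit with the replicate number as a block, and from replicates 2 and 3 alone.

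Il18r1 and Il18rap, the chains of the IL-18 receptor, were about 2 to 3 times as high in Scd-1-/- Teff as in WT Teff, Il4ra was lower, and Il2rb was slightly higher. The other 6 genes had fitted log2 fold changes between -0.18 and 0.06. Of the 10 genes, 1 (Il18r1) rose past the thresholds set in the study's methods (a 2-fold change, that is 1 on the log2 scale, and an unadjusted p below 0.001), which 0.738% of the 9627 genes passed. By contrast, 0 of the 10 had a Benjamini-Hochberg adjusted p under 0.05 in edgeR's quasi-likelihood test on genotype alone, as against 0.114% of all genes, and 4 had an unadjusted p under 0.05, as did 10.1% of all genes. The libraries of the genotypes did not overlap for 4 of the 10 genes (3 higher and 1 lower in Scd-1-/-), compared with 16.1% of all genes. The median log2 fold change was 0.01 over the 10 genes and -0.0005 over all genes tested.

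**Figure D1:**
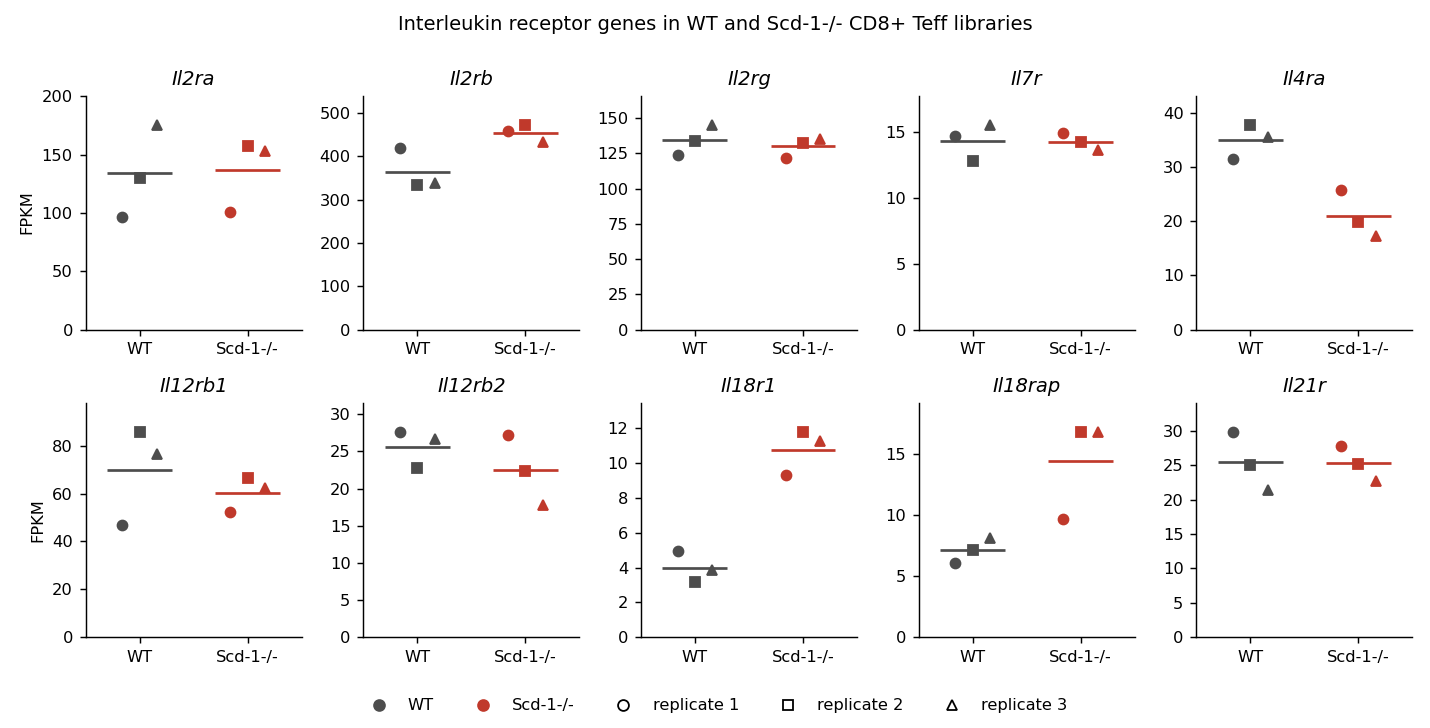
FPKM of the 10 interleukin receptor genes in each library, with 1 panel a gene, points for the 3 WT and 3 Scd-1-/- libraries, point shapes for replicate numbers and lines for the means. The groups stand apart for Il18r1, Il18rap and Il2rb (higher in Scd-1-/-) and Il4ra (lower in Scd-1-/-) and overlap for the other 6 genes.

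With the replicate block, 2 of the 10 genes (Il18r1 and Il18rap) rose past the thresholds, compared with 1.91% of all genes, and 3 (those and Il4ra, which fell) had an adjusted p under 0.05, compared with 4.70% of all genes. DESeq2, which fits the same counts with another estimate of their spread, called these same genes: 2 past the thresholds (1.67% of all genes) and 3 with an adjusted p under 0.05 (2.76%). In replicates 2 and 3 alone, 2 were past the thresholds (3.83% of all genes) and 4 had an adjusted p under 0.05 (12.6%), Il2rb being the fourth. The study's methods speak of independent experiments in general, but what a replicate number of these libraries stands for (a culture, a mouse or a day) is not given in the sources used here, so the p-values measure the spread between these libraries, which may be technical.

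**Figure D2:**
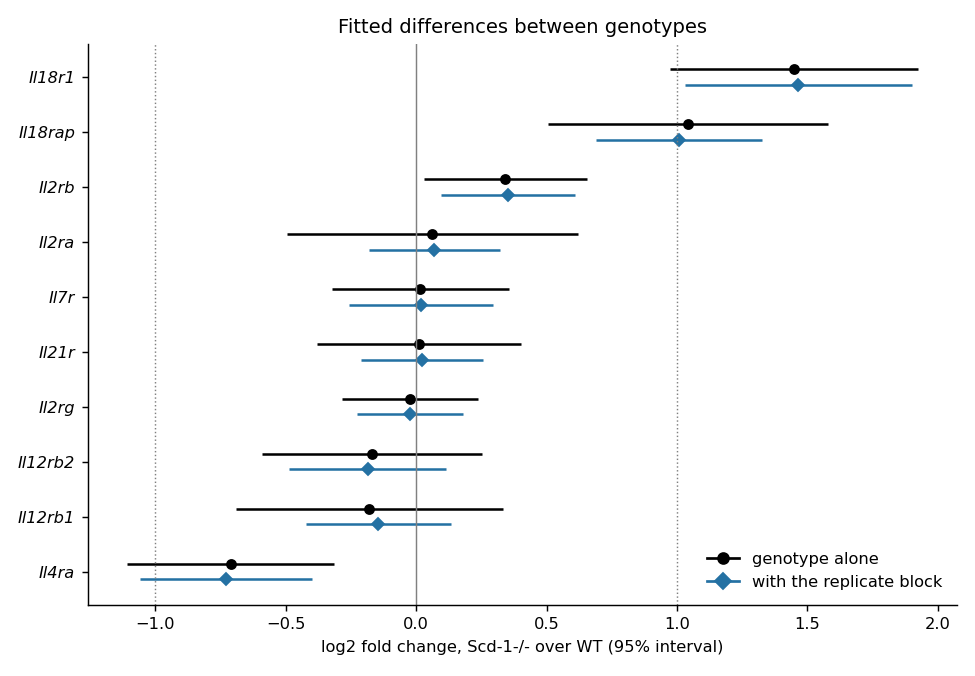
Log2 fold change of Scd-1-/- over WT (horizontal axis) with its 95% interval for the 10 interleukin receptor genes, from the fit on genotype alone (black circles) and with the replicate block (blue diamonds), with dotted lines at a log2 fold change of 1 in either direction. The block narrows the intervals and moves the estimates little, as for Il18rap, at 1.04 without it and 1.01 with it.

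By level per length, the 10 genes spanned a wide range, and the chains of the IL-2 receptor led it in both genotypes. In WT Teff the mean FPKM ran from 363 ± 47.2 (SD, n = 3) for Il2rb down to 4.0 ± 0.887 (SD, n = 3) for Il18r1. The order was Il2rb, Il2rg, Il2ra, Il12rb1, Il4ra, Il12rb2, Il21r, Il7r, Il18rap and Il18r1. Neighbours in it had libraries that did not overlap, except Il2rg with Il2ra and Il12rb2 with Il21r, whose libraries overlapped. In Scd-1-/- Teff the mean FPKM ran from 454 ± 20.6 (SD, n = 3) for Il2rb down to 10.8 ± 1.31 (SD, n = 3) for Il18r1. There the order was Il2rb, Il2ra, Il2rg, Il12rb1, Il21r, Il12rb2, Il4ra, Il18rap, Il7r and Il18r1, and 4 neighbouring pairs overlapped: Il2ra with Il2rg, Il21r with Il12rb2, Il12rb2 with Il4ra, and Il18rap with Il7r. Il4ra, above Il12rb2 in every WT library, thus overlapped it in Scd-1-/-, as did Il18rap with Il7r, which was above it in every WT library.

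The IL-18 receptor genes lie side by side on chromosome 1. Il18r1 (ENSMUSG00000026070), the chain that binds IL-18, spans chr1:40465552-40500854 on the plus strand of GRCm38. Il18rap (ENSMUSG00000026068), the accessory chain needed for signalling, spans chr1:40515362-40551705 on the same strand and begins 14507 bases beyond the end of Il18r1. Both neighbours were higher in Scd-1-/-, although among WT libraries replicate 1 was highest for Il18r1 and lowest for Il18rap. Over the 6 libraries their levels (log2 of counts scaled by library size) had a Pearson r of 0.866. The non-exonic stretches before their start sites are shown, taken from RefSeq's promoter windows on GRCm38.p6 (plus strand). The windows were searched on both strands for the STAT motif TTCNNNGAA, the T-box motif GGTGTGA, the Runx motif TGTGGT and the AP-1 motif TGANTCA, none of which contains another, and capitals mark a match in a printed stretch:
Il18r1, chr1:40465416-40465551, up to the base before the start site at 40465552: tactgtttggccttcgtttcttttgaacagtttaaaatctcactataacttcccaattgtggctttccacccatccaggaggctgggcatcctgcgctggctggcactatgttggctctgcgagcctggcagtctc
Il18r1, chr1:40465811-40465969, before a later start site at 40466006: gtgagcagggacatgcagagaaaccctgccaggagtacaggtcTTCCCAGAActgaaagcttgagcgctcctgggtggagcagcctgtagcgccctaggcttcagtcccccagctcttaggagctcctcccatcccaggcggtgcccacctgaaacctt
Il18rap, chr1:40515112-40515361, up to the base before the start site at 40515362: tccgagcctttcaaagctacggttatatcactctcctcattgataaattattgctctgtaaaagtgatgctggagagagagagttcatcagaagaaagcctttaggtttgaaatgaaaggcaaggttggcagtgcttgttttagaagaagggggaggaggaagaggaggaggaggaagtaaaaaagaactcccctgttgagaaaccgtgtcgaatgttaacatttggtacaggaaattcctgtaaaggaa

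The match TTCCCAGAA lies 152 bases before the later start site of Il18r1. RefSeq windows were found for 8 of the 10 genes. RefSeq gives some genes more than 1 start site, and these 8 genes had 10 windows. The STAT motif occurred in 3 of the 10 windows (1 each of Il7r, Il12rb2 and Il18r1) and in 8.30% of all 32851 windows. The Runx motif occurred in 5 of the 10 (1 each of Il2rg, Il7r, Il21r, Il18r1 and Il18rap) and in 16.8% of all windows, and in Il18r1 and Il18rap it fell outside the stretches printed. The T-box and AP-1 motifs, present in 3.98% and 7.81% of all windows, were found in 0 of the 10 windows. A match describes these letters and does not show that a factor binds there.

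Il18r1 had an FPKM of 4.94, 3.18 and 3.89 in WT replicates 1, 2 and 3 and of 9.30, 11.8 and 11.3 in Scd-1-/- replicates 1, 2 and 3. Every Scd-1-/- library was above every WT library, and the gap was narrowest in replicate 1, where WT was at its highest and Scd-1-/- at its lowest. The summed counts were 1498 in WT and 4196 in Scd-1-/-. The fitted level was 2.73-fold higher in Scd-1-/- Teff (95% interval 1.96 to 3.80), a log2 fold change of 1.45 with a standard error of 0.20. The adjusted p of edgeR's quasi-likelihood test was 0.0646 on genotype alone and 0.0089 with the replicate block. By replicate number the log2 difference was 0.91, 1.89 and 1.60 in replicates 1, 2 and 3.

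Il18rap had an FPKM of 6.10, 7.18 and 8.12 in WT replicates 1, 2 and 3 and of 9.72, 16.8 and 16.8 in Scd-1-/- replicates 1, 2 and 3. Again no library of the genotypes overlapped, with Scd-1-/- replicates 2 and 3 well above replicate 1. The fold was 2.06 (95% interval 1.42 to 2.99), a log2 fold change of 1.04 with a standard error of 0.23. Its adjusted p by edgeR was 0.168 on genotype alone, where it missed the study's threshold for p, and 0.0107 with the block, where it passed the thresholds. Without Scd-1-/- replicate 1 it also passed them, at a log2 fold change of 1.26. The ratio of Il18rap to Il18r1 within a library was 1.23, 2.26 and 2.09 in WT and 1.05, 1.43 and 1.49 in Scd-1-/- replicates 1, 2 and 3, so Il18rap exceeded Il18r1 per length in all 6 libraries and the ranges overlapped.

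Other genes for the IL-1 family receptors lie upstream in the same stretch of chromosome 1, which runs over 477627 bases from the start of Il1r2 to the end of Il18rap. Il1r2, the decoy receptor for IL-1, had an FPKM of 6.05, 3.04 and 1.71 in WT and of 6.91, 3.75 and 2.88 in Scd-1-/- replicates 1, 2 and 3. Its libraries overlapped, with replicate 1 highest in both genotypes (log2 fold change 0.34, 95% interval -0.85 to 1.53). Il1rl1, the IL-33 receptor, ends 136 bases before Il18r1 begins and had only 12, 18 and 4 counts in WT and 29, 35 and 54 counts in Scd-1-/- libraries, under the FPKM minimum. These counts are low but did not overlap either (log2 fold change 1.72, 95% interval 0.49 to 2.95, adjusted p = 0.328 by edgeR over all genes with a count). Il1r1 had at most 4 counts in a library and Il1rl2 at most 37. These 4 genes are named for their place beside Il18r1, after their values were seen.

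**Figure D3:**
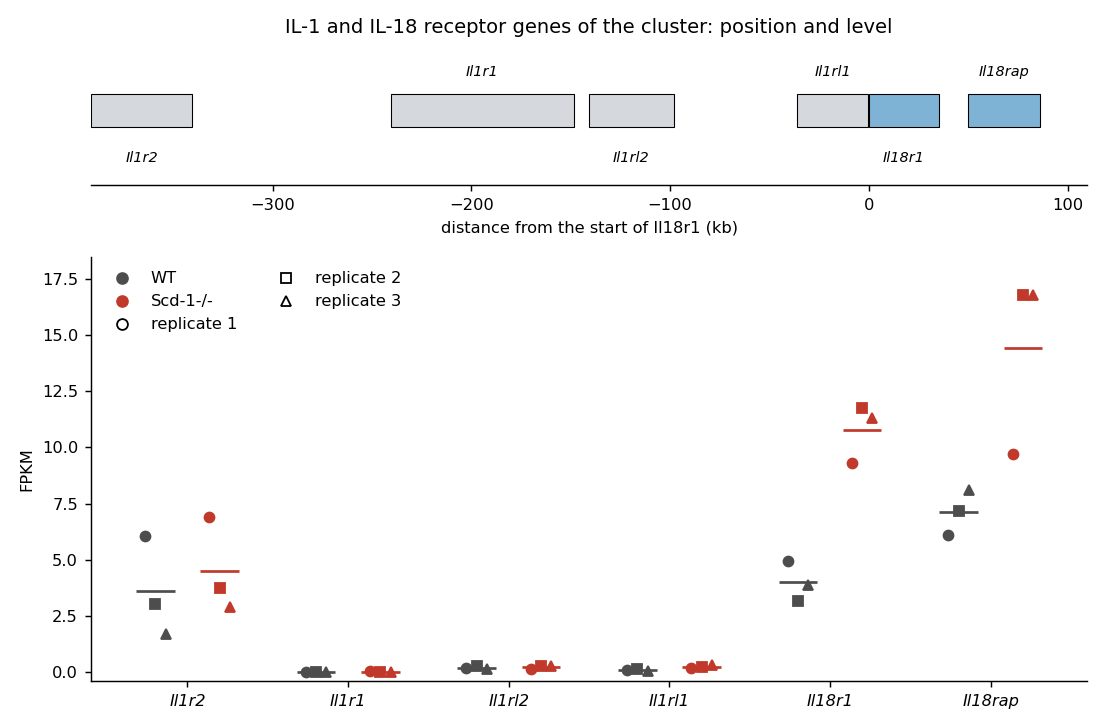
Position of the IL-1 and IL-18 receptor genes of chromosome 1 as distance in kb from the start of Il18r1 (upper panel, the IL-18 receptor genes in blue) and the FPKM of each in the 3 WT and 3 Scd-1-/- libraries with means (lower panel). Il18r1 and Il18rap are separated by genotype and Il1r2 is not, while Il1r1, Il1rl2 and Il1rl1 lie too close to 0 to be compared on this scale, on which the separation of Il1rl1 cannot be seen.

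Some markers of other cell types, among them natural killer cells, which carry the IL-18 receptor, also differed between the genotypes. The summed counts of 5 markers of natural killer and innate lymphoid cells were 56 to 80 in WT and 175 to 719 in Scd-1-/- libraries. Most were from Klrb1c, the NK1.1 gene, with 37, 55 and 65 counts in WT and 126, 645 and 602 in Scd-1-/- replicates 1, 2 and 3. Its log2 fold change was 3.09 (adjusted p by edgeR 0.12 on genotype alone and 0.0059 with the block). Klrb1b (10 counts in all WT and 89 in all Scd-1-/- libraries) and Il1rl1 (34 and 118) were higher too, whereas Ncr1, the defining receptor of natural killer cells, had 0, 4 and 5 counts in WT and 0, 0 and 2 in Scd-1-/- replicates 1, 2 and 3. For 4 markers of mast cells and basophils the sums were 13 to 30 in WT and 30 to 194 in Scd-1-/-, and for 6 myeloid markers they were 60 to 81 and 186 to 279. Of the mast cell and basophil genes, Mcpt8 had 5, 9 and 3 counts in WT and 8, 110 and 125 in Scd-1-/- replicates 1, 2 and 3, and Cpa3 had 25, 4 and 18 and 22, 83 and 66, so that Scd-1-/- replicate 1 was within the WT range for both, while Ms4a2 was at 0 and Fcer1a at no more than 3 counts in a library. Of the myeloid genes, Cd14 had 11, 5 and 4 counts in WT and 28, 42 and 40 in Scd-1-/-, and Fcgr3 had 33, 74 and 53 and 75, 158 and 222 (adjusted p by edgeR 0.0956 and 0.352 on genotype alone, and 0.0287 and 0.0264 with the block). Itgam had 16, 0 and 5 counts in WT and 83, 13 and 16 in Scd-1-/- replicates 1, 2 and 3. Csf1r had at most 4 and Lyz2 at most 2 counts in a library, and Adgre1 had none. In the Scd-1-/- libraries Cd8a and the B cell gene Cd79b were lower without overlap, and Ighm had a lower mean with overlap, as given above. The cells had been isolated with a kit for CD8+ T cells and activated through CD3, and were harvested on day 6. The part of such cells in the IL-18 receptor result was not tested, and in bulk RNA a change in the share of cells that carry a receptor cannot be told apart from a change in RNA per cell.

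Of the molecules around this receptor, Il18 itself was present at a low level, with an FPKM of 2.68, 1.20 and 1.97 in WT and of 1.89, 1.49 and 2.03 in Scd-1-/- replicates 1, 2 and 3. Its libraries overlapped (log2 fold change -0.09, 95% interval -0.98 to 0.80). Myd88, the adaptor of the receptor, had a mean FPKM of 20.4 ± 1.71 in WT and of 18.6 ± 1.92 in Scd-1-/- (SD over 3 libraries each), and its log2 fold change was -0.11 (95% interval -0.44 to 0.23). For the kinases Irak1, Irak2 and Irak4 and the ligase Traf6, the log2 fold changes lay between -0.26 and 0.08, and none passed the test by edgeR. Irak1 was lower in every Scd-1-/- library, at 4.90, 5.38 and 5.11 FPKM in WT and 4.78, 4.37 and 4.30 in Scd-1-/- replicates 1, 2 and 3. Its log2 fold change was -0.17 (adjusted p = 0.744 by edgeR), and the libraries of Irak2, Irak4 and Traf6 overlapped. These genes are named for their place in the pathway, after their values were seen.

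Il4ra (ENSMUSG00000030748, chr7:125552120-125579474, plus strand), the chain that binds IL-4 and also forms part of the receptor for IL-13, was lower in Scd-1-/- Teff. Its FPKM was 31.5, 37.8 and 35.5 in WT replicates 1, 2 and 3 and 25.8, 19.8 and 17.3 in Scd-1-/- replicates 1, 2 and 3. No libraries overlapped, and replicate 1 again had the narrowest gap, with a log2 difference of -0.29 as against -0.93 in replicate 2 and -0.97 in replicate 3. The fitted level in Scd-1-/- was 0.611 of that in WT (95% interval 0.464 to 0.804), or 1.64-fold lower, with a log2 fold change of -0.71 and a standard error of 0.17. On genotype alone the adjusted p by edgeR was 0.202, and with the replicate block it was 0.0334 at a log2 fold change of -0.73. Without Scd-1-/- replicate 1 it was past the adjusted threshold as well, at a log2 fold change of -0.89. An antisense gene, Gm44876, overlaps exons of Il4ra and had 0 counts in all 6 libraries.

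Il21r (chr7:125603429-125633570), the chain that binds IL-21, begins 23954 bases beyond the end of Il4ra on the same strand, and its libraries overlapped between the genotypes. Its FPKM was 29.8, 25.0 and 21.4 in WT and 27.8, 25.2 and 22.8 in Scd-1-/- replicates 1, 2 and 3. Replicate 1 was highest and replicate 3 lowest in both genotypes, and the log2 fold change was 0.01 (95% interval -0.38 to 0.40, adjusted p = 0.991 by edgeR). Neither the ligand Il21 nor Il2 had a count in any library. Il4 had a mean FPKM under the minimum, and Il13, whose receptor joins Il4ra with Il13ra1 (at most 1 count in any library), had an FPKM of 0.274, 1.77 and 2.80 in WT and of 0.480, 0.353 and 0.785 in Scd-1-/- replicates 1, 2 and 3. Its libraries overlapped, and WT replicate 1 stood apart from the other WT libraries (log2 fold change -1.52, 95% interval -3.23 to 0.19). The adjusted p of Il13 by edgeR was 0.554 on genotype alone and 0.193 with the block. In replicates 2 and 3 alone its log2 fold change was -1.93 with an adjusted p of 0.029.

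Il2rb (ENSMUSG00000068227, chr15:78479256-78495271, minus strand), the beta chain that signals for IL-2 and IL-15, was the most abundant of the 10 genes. Its FPKM was 418, 333 and 339 in WT replicates 1, 2 and 3 and 459, 472 and 432 in Scd-1-/- replicates 1, 2 and 3. The lowest Scd-1-/- library was just above the highest WT library, WT replicate 1. The fold was 1.27 (95% interval 1.02 to 1.57), the log2 fold change 0.34 with a standard error of 0.13, and the adjusted p by edgeR was 0.448 on genotype alone and 0.116 with the block. In replicates 2 and 3 alone the log2 fold change was 0.46 with an adjusted p of 0.0232.

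Il2ra (CD25), the alpha chain that gives high affinity for IL-2, varied more among replicates than between genotypes. Its FPKM was 96.7, 130 and 175 in WT and 101, 157 and 153 in Scd-1-/- replicates 1, 2 and 3. Replicate 1 was lowest in both genotypes, and the highest library was WT replicate 3. The log2 fold change was 0.06 (95% interval -0.50 to 0.62, adjusted p = 0.960 by edgeR), so that a fold between 0.708 and 1.54 lies within the error.

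Il2rg had an FPKM of 124, 134 and 145 in WT and of 122, 132 and 135 in Scd-1-/- replicates 1, 2 and 3, and was the steadiest of the 10 genes. The libraries overlapped, and the log2 fold change was -0.02 with a standard error of 0.11, the smallest of the 10 (95% interval -0.28 to 0.24, adjusted p = 0.968 by edgeR). Gm20489, a gene with exons that overlap Il2rg on the same strand, had 0 counts in all libraries. Il7r (CD127), a marker of naive and memory cells that activated T cells lose, had an FPKM of 14.7, 12.8 and 15.5 in WT and of 14.9, 14.2 and 13.6 in Scd-1-/- replicates 1, 2 and 3. All 6 libraries lay between 12.8 and 15.5 FPKM, and its log2 fold change was 0.02 (95% interval -0.32 to 0.35).

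Il12rb1, the chain shared by the receptors for IL-12 and IL-23, had an FPKM of 46.8, 85.5 and 76.6 in WT and of 52.3, 66.4 and 62.3 in Scd-1-/- replicates 1, 2 and 3. Replicate 1 was lowest in both genotypes, and the Scd-1-/- libraries lay within the range of the WT libraries. The log2 fold change was -0.18 (95% interval -0.69 to 0.33, adjusted p = 0.865 by edgeR), and it ran from -0.39 without WT replicate 1 to -0.00035 without WT replicate 2. Il12rb2, the chain particular to IL-12, had an FPKM of 27.6, 22.8 and 26.6 in WT and of 27.2, 22.3 and 17.8 in Scd-1-/- replicates 1, 2 and 3. The libraries overlapped, Scd-1-/- replicate 3 being lowest, and the log2 fold change was -0.17 (95% interval -0.59 to 0.25, adjusted p = 0.831 by edgeR). It ran from -0.34 without Scd-1-/- replicate 1 to -0.03 without Scd-1-/- replicate 3. Exons of Il12rb2 overlap those of Serbp1 on the opposite strand, which had 4988 to 8564 counts in a library. The study's methods name a strand-specific library kit, but the sources differ on the kit. Since the strand used in counting is not given in the sources used here, the level of Il12rb2 is uncertain.

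A total of 9 ratios of chains were compared within libraries, per length, 8 of them between chains that share a receptor and 1 of Il7r over Il2ra, which do not. The ratio of Il4ra to Il2rg was 0.255, 0.282 and 0.245 in WT and 0.212, 0.150 and 0.128 in Scd-1-/- replicates 1, 2 and 3. It was the 1 ratio of 9 whose groups did not overlap, with a difference of -0.71 on the log2 scale, at p = 0.1 by a two-sided exact permutation test, the smallest that 3 against 3 libraries allow, and 0.9 after adjustment over the ratios. Within the IL-2 receptor, Il2rb over Il2rg was 3.38, 2.49 and 2.34 in WT and 3.76, 3.57 and 3.19 in Scd-1-/- replicates 1, 2 and 3. Its ranges overlapped only through WT replicate 1, and the log2 difference was 0.37 (exact permutation p = 0.2). Il2ra over Il2rb differed by -0.28 (exact permutation p = 0.4) and Il18rap over Il18r1 by -0.46 (exact permutation p = 0.3), with ranges of -0.60 to -0.02 and -0.74 to -0.30 when 1 library was left out. Without WT replicate 3 the difference of Il2ra over Il2rb was -0.02, and without WT replicate 1 it was -0.60. The remaining 5 ratios differed by -0.05 to 0.09. Taken by replicate number, 4 ratios differed in the same direction in all 3 replicates. Il18rap over Il18r1 was lower in Scd-1-/- by log2 differences of -0.24, -0.66 and -0.49, Il2ra over Il2rb by -0.07, -0.22 and -0.55, and Il4ra over Il2rg by -0.27, -0.92 and -0.93, and Il2rb over Il2rg was higher by 0.15, 0.52 and 0.45 in replicates 1, 2 and 3. Each had p = 0.25 in an exact permutation test over the 3 pairs, the smallest that 3 pairs allow.

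**Figure D4:**
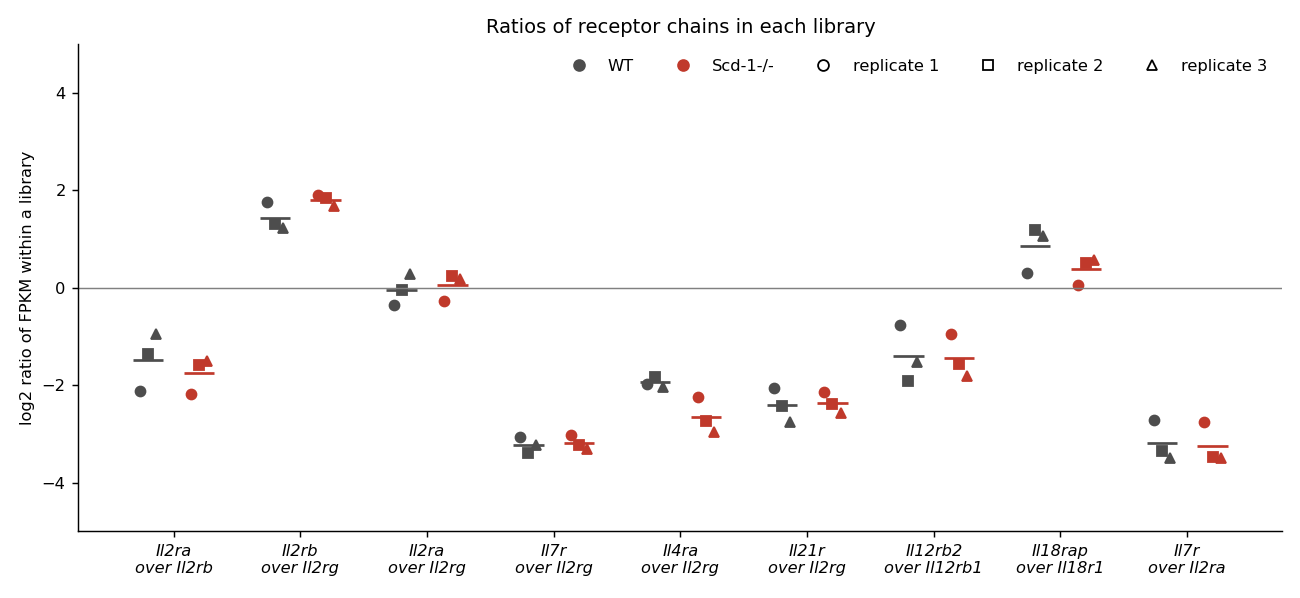
Log2 ratio of the FPKM of 2 receptor chains within each library (vertical axis) for 9 ratios, with points for the 3 WT and 3 Scd-1-/- libraries and lines for the means. The groups are separate for Il4ra over Il2rg, while for ratios with Il2ra the replicates of each genotype spread more widely than the genotypes differ.

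A list of 38 chains of other cytokine receptors was compared in the same fit. Of these 12 were tested, 8 had no count and 18 had a count but were under the minimum. By edgeR 0 of the 12 reached the thresholds or an adjusted p under 0.05, with 3 at an unadjusted p under 0.05 (10.1% of all genes). With the replicate block 1 passed both (1.91% and 4.70% of all genes), and so it did by DESeq2 (1.67% and 2.76%). This was Ifngr2, the signalling chain of the IFN-γ receptor, with an FPKM of 1.15, 3.21 and 2.61 in WT and of 0.275, 0.364 and 0.630 in Scd-1-/- replicates 1, 2 and 3. Its libraries did not overlap, and its log2 fold change was -2.42 with a standard error of 0.48 (adjusted p = 0.120 on genotype alone and 0.0089 with the block). When all 17192 genes with a count were fitted, of which 0.861% passed the thresholds, Ifngr2 passed them without the block, and 0 of the 18 chains under the minimum did.

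The 5 most abundant of these other chains were Ifngr1, Sigirr, Il27ra, Il3ra and Crlf2. Ifngr1, the chain that binds IFN-γ, had a mean FPKM of 98.0 ± 37.0 in WT and of 124 ± 19.9 in Scd-1-/- (SD over 3 libraries each), and these overlapped (log2 fold change 0.36, adjusted p by edgeR 0.737 on genotype alone and 0.113 with the block, and 0.59 with an adjusted p of 0.00739 in replicates 2 and 3 alone). Sigirr, a member of the IL-1 receptor family that restrains IL-1 and IL-18 signalling, averaged 59.6 ± 4.36 and 53.2 ± 3.56 FPKM (SD, n = 3 each), and its log2 fold change was -0.14 (95% interval -0.44 to 0.16). Il27ra, the IL-27 receptor, had 36.9 ± 2.13 in WT and 26.1 ± 5.22 in Scd-1-/- (SD, n = 3 each) and no overlap, with a log2 fold change of -0.47 and an adjusted p by edgeR of 0.407, as against -0.49 and 0.0847 with the block and -0.66 and 0.0139 in replicates 2 and 3 alone. Il3ra, the IL-3 receptor chain, and Crlf2, the receptor for thymic stromal lymphopoietin, had log2 fold changes of 0.01 and 0.41, with adjusted p of 0.994 and 0.572 by edgeR.

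A further list held 32 genes for ligands, kinases, STAT factors and feedback, of which 22 were tested. On genotype alone 0 reached the thresholds or an adjusted p under 0.05 in edgeR's test, with 4 at an unadjusted p under 0.05 (10.1% of all genes). By DESeq2 1 passed both (1.67% and 2.76% of all genes), and with the block 1 reached the thresholds (1.91%) and 2 an adjusted p under 0.05 (4.70%). Of the 22 genes, 16 had a lower and 6 a higher fitted level in Scd-1-/-, and the median log2 fold change was -0.15. The libraries did not overlap for 4 of the 22, each lower in Scd-1-/-, as against 16.1% of all genes in either direction.

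Stat5b, which relays IL-2 and IL-7 signals, had an FPKM of 29.1, 39.3 and 33.4 in WT and of 25.0, 23.1 and 19.7 in Scd-1-/- replicates 1, 2 and 3. The libraries did not overlap, and the log2 fold change was -0.56 (adjusted p = 0.268 on genotype alone and 0.0498 with the block).

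Jak3, the kinase bound to Il2rg, had an FPKM of 63.1, 67.8 and 64.9 in WT and of 65.0, 40.0 and 35.9 in Scd-1-/- replicates 1, 2 and 3. Scd-1-/- replicate 1 was within the WT range and the other 2 were below it. The log2 fold change was -0.45 with an adjusted p of 0.557 by edgeR on genotype alone, and -0.50 with 0.13 with the block. In replicates 2 and 3 alone it was -0.77 with an adjusted p of 0.00212. Of the remaining abundant genes of the list, Stat6, the factor of IL-4 signalling, had 38.8 ± 2.60 FPKM in WT and 38.5 ± 2.70 in Scd-1-/- (SD, n = 3 each), and its log2 fold change was 0.01 (95% interval -0.26 to 0.29). Jak1, bound to the ligand-specific chains, and Socs1, a feedback inhibitor, had log2 fold changes of 0.15 and -0.22 with overlapping libraries. For Jak1 the adjusted p by edgeR was 0.411 with the block. In replicates 2 and 3 alone its log2 fold change was 0.38 with an adjusted p of 0.0422.

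**Figure D5:**
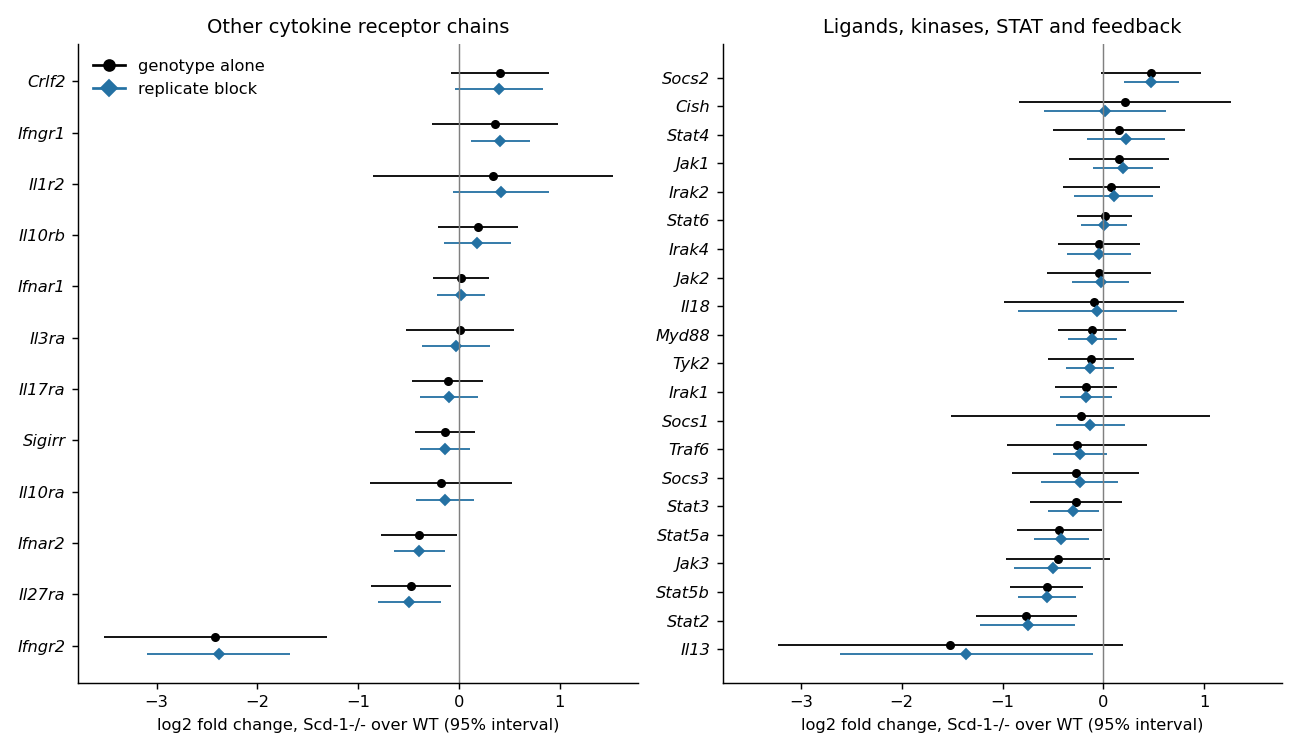
Log2 fold change of Scd-1-/- over WT with its 95% interval for the 12 other cytokine receptor chains tested (left) and 21 of the 22 tested genes for ligands, kinases, STAT factors and feedback (right), from the fit on genotype alone (black circles) and with the replicate block (blue diamonds). On genotype alone, Ifngr2 (-2.42) and Il13 (-1.52) lie farthest to the left in their panels, and the highest values are those of Crlf2 (0.41) and Socs2 (0.48). With the block the highest of the other receptor chains is Il1r2 (0.42).

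For each receptor gene, the 3 genes whose log2 CPM (counts scaled by library size) ran most like it over the 6 libraries were found by Pearson's r among the 9627 tested, as a description. They were P2ry10, Ercc6l and Gimap8 for Il2ra, and Ier5, Gpr18 and 1810006J02Rik for Il2rb. For Il2rg they were Pecr, Fam210a and Rhot1, and for Il7r they were D5Ertd605e, Cd274 and Wrap53. Il18r1 ran most like Sytl2, C1qtnf6 and Prf1, the perforin gene (r of 0.999, 0.998 and 0.998), and Il18rap most like Fcer1g, a signalling adaptor, and the granzyme genes Gzme and Gzmg (r of 0.999, 0.999 and 0.998), which belong to a family of close copies that may share reads. For Il4ra they were Sox12, Xab2 and Cul7, and for Il21r Mtmr3, Stk24 and Myl12a. For Il12rb1 they were Eftud2, Lman2 and Tbc1d20, and for Il12rb2 Usp33, Ccdc6 and Bap1. The r of all 30 lay between 0.967 and 0.999, over 6 points that share the libraries and hold both genotypes.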

How the data were processed

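RNA of Teff was sequenced in 3 WT and 3 Scd-1-/- libraries. Per the labels and the study's methods, the authors mapped the reads with HISAT2 and counted them with StringTie 1.3.0, on GRCm38. The sources name different library kits and RNA inputs. The authors deposited whole-number counts per gene and FPKM values. Counts divided by FPKM followed the total counts, so the deposited FPKM holds no TMM factor. Levels are given in FPKM.

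Counts were tested with edgeR 4.0.16 (quasi-likelihood, TMM scaling, two-sided, R 4.3.3) in all 9627 genes with a mean of at least 1 FPKM, with Benjamini-Hochberg adjustment over these. Standard errors are the log2 fold change over the square root of F, and intervals are 95%. The script was tested on simulated data. DESeq2 1.42.0 and limma 3.58.1 on log2(FPKM + 1) were among 13 alternatives, and replicates 2 and 3 alone were added after seeing the data. Libraries held 14034479 to 15866216 counts, at which a count of 0 allows up to 3 counts (counting error only). The deviations of same-numbered libraries from their group means correlated at r = 0.583, 0.297 and 0.460 for replicates 1, 2 and 3 across genes, and the numbers were taken as pairs. Deviations within a genotype sum to 0. Replicate 1 standing apart in both genotypes thus also raises r among replicates 2 and 3, matched or crossed. These r cannot settle whether replicates 2 and 3 are matched by number, which the block fit assumes. Crossed libraries of replicates 2 and 3 had r = 0.357 (WT 3 with Scd-1-/- 2) and 0.173 (WT 2 with Scd-1-/- 3), so Scd-1-/- replicate 2 ran closer to WT replicate 3 than to WT replicate 2.

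The members, lists and tests were chosen with earlier results of these data known. Named genes are the 10 members, from the other lists those past a threshold without or with the block and the 5 most abundant, Scd1, and the 3 genes most like each member. Cell type markers are named from their lists. Il1r1, Il1r2, Il1rl1, Il1rl2, Il2, Il4, Il13, Il13ra1, Il18, Il21, Myd88, Irak1, Irak2, Irak4, Traf6, Socs2 and genes with overlapping exons were named after their values were seen. The values of 1 gene of the ligand, kinase, STAT and feedback list and 1 B cell marker are not reported here, although the counts over their lists include them. Positions are from GENCODE M21 (98.6% of identifiers matched) and promoter windows from RefSeq.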

Additional observations from a re-analysis of the deposited data

How the results depend on the processing

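Il18r1 passed the thresholds in all 14 alternatives, at log2 fold changes from 1.25 to 1.74, and had an adjusted p under 0.05 in 6. Il18rap passed the thresholds in 4 of 14 (0.89 to 1.26), and Il4ra, at -0.95 to -0.59, had an adjusted p under 0.05 in 4. The number of members past the thresholds was 2 by DESeq2, with the replicate block and in replicates 2 and 3 alone, and 1 to 2 when 1 library was left out, with 2 without Scd-1-/- replicate 1. The number with an adjusted p under 0.05 was 1 with no FPKM minimum (Il18r1), 3 by DESeq2 and with the replicate block, 4 in replicates 2 and 3 alone, and 0 to 3 when 1 library was left out, with 1 without WT replicate 1 (Il18r1) and 3 without Scd-1-/- replicate 1. The block changed no other member's call and no call of a ratio, and other causes of these differences were not tested.

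Of the other cytokine receptors, 1 passed the thresholds with no FPKM minimum, by DESeq2, with the block and in replicates 2 and 3 alone, and 0 to 1 with 1 library left out, with 1 without WT replicate 1 (Ifngr2 in each). The number with an adjusted p under 0.05 was 1 by DESeq2 and with the block, 3 in replicates 2 and 3 alone (Ifngr1, Ifngr2 and Il27ra) and 0 to 1 with 1 library left out. Of the ligand, kinase, STAT and feedback genes, 1 passed the thresholds by DESeq2 and with the block, 2 in replicates 2 and 3 alone and 0 to 1 with 1 library left out, with 1 without WT replicate 1. The number with an adjusted p under 0.05 was 1 by DESeq2, 2 with the block, 8 in replicates 2 and 3 alone and 0 to 1 with 1 library left out, with 1 without WT replicate 1 and 1 without Scd-1-/- replicate 1 (Jak3).

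Genes near no difference changed sign. With 1 library left out, the log2 fold change ran from -0.11 to 0.28 for Il2ra, -0.064 to 0.019 for Il2rg, -0.061 to 0.058 for Il7r and -0.11 to 0.16 for Il21r. By limma on log2(FPKM + 1) and on log2(FPKM + 0.1), it was -0.0042 and -0.0042 for Il7r and -0.0010 and -0.00077 for Il21r. The log2 differences of ratios ran from -0.063 to 0.26 for Il2ra over Il2rg, -0.040 to 0.12 for Il7r over Il2rg, -0.13 to 0.22 for Il21r over Il2rg, -0.30 to 0.27 for Il12rb2 over Il12rb1 and -0.29 to 0.18 for Il7r over Il2ra. With 3 libraries a genotype, a permutation test of 1 ratio cannot reach 0.05.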
